A study of Mus musculus with 6 samples.

Results

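Genes of extracellular lipid carriage and lipid efflux were followed in the light damaged mouse retina: the secreted carriers Apoe, Apod and Clu, the transporters and receptors Abca1, Abcg1, Vldlr and Lrp1, the lipase gene Lpl, and the lipid droplet gene Plin2. They were taken by gene symbol as all probe sets that the array's annotation assigns to a single one of these genes, which gave 23 of the 45037 probe sets and 9 of the 18193 genes measured. The light damaged group consisted of BALBc mice, an albino strain, kept 1 week in the dark, then given white fluorescent light of 6000 lux for 6 h and sampled 24 h later. The dark adapted group had the same week in the dark without that light. Whole retinas were used, with 3 Affymetrix arrays in each group, so every value covers all retinal cell types, and fewer cells of a type and less RNA per cell cannot be told apart. The labels give no age of the mice. Values are log2 expression as deposited by the authors after RMA (robust multi-array average), and a difference of 1 is a 2-fold difference. No label says whether replicates are different animals, so the p-values refer to the spread among these arrays alone, part or all of which could be technical.

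Lipids travel between cells on lipoprotein particles. ABCA1 and ABCG1 move cholesterol and phospholipid out of cells onto apolipoproteins such as apolipoprotein E, receptors of the LDL receptor family take particles up, lipoprotein lipase releases fatty acids from their triglycerides, and perilipin 2 coats the droplets in which cells store surplus lipid. In the retina, Müller glia and the pigment epithelium are known sources of apolipoprotein E, and photoreceptor outer segments are stacks of lipid-rich membrane that are renewed throughout life.

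Plin2 rose most of the 9 genes, to 2.61 times its dark adapted level, and Lpl rose to 1.56 times. Clu had a change of similar size to that of Lpl (0.63 on the log2 scale) and did not pass the threshold. None of the 9 genes fell past the threshold, although Abcg1 was lower on every light damaged array. The test was limma's moderated test across all 18193 genes, each represented by its brightest probe set, with Benjamini-Hochberg adjusted p under 0.05 as the threshold. It called 2 of the 9 genes higher and 0 lower (5 of the 9 had an unadjusted p under 0.05, as had 11% of all genes), where 1.74% of all genes were called higher and 0.269% lower. The median change of the 9, that of Abca1, was 0.25, against 0.03 over all genes. Over the 23 probe sets it was 0.023, with 12 positive and 11 negative, against 0.0086 over all probe sets. When the replicate number was added to the fit as a block, 3 of the 9 were called higher and 1 lower, against 6.73% and 2.13% of all genes. That block rests on a pairing of the arrays inferred from the data.

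**Figure D1:**
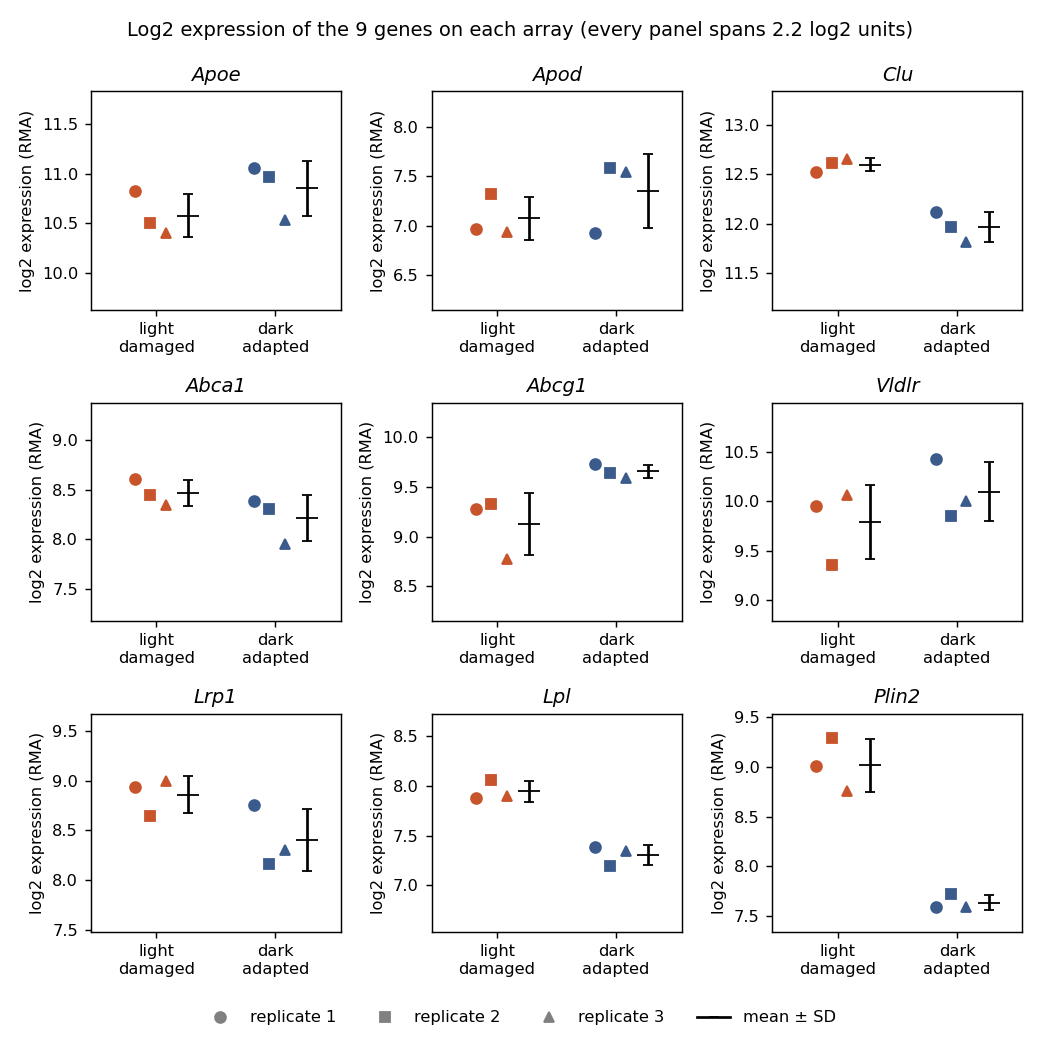
Log2 expression of each of the 9 genes (vertical axis, every panel 2.2 log2 units high) on the 3 light damaged arrays (orange, left) and the 3 dark adapted arrays (blue, right). Symbols give the replicate number, and the black bars give the mean and SD of the group. Plin2, Lpl and Clu are higher on all 3 light damaged arrays than on any dark adapted array, Abcg1 is lower on all 3, and the groups of the other 5 genes overlap.

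Plin2 encodes perilipin 2, a protein of the surface of lipid droplets. Its probe set read 9.01, 9.29 and 8.76 in light damaged retinas, against 7.59, 7.72 and 7.59 in dark adapted retinas. The groups were far apart: the lowest light damaged array lay more than 1 log2 unit above the highest dark adapted one, and the dark adapted arrays differed little among themselves. The means were 9.02 ± 0.27 in light damaged and 7.63 ± 0.08 in dark adapted retinas (SD, n = 3 each), a change of 1.39 ± 0.16 (SE) with a limma adjusted p of 0.00417. The change was 1.42, 1.57 and 1.17 between the arrays of replicate 1, 2 and 3. Plin2 was called under all 13 alternative settings, with adjusted p between 0.000116 and 0.0244. Plin2 has 1 probe set on the array, so no other probe set bears on this value.

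Lpl encodes lipoprotein lipase. Its brighter probe set read 7.88, 8.07 and 7.89 in light damaged retinas and 7.39, 7.19 and 7.34 in dark adapted retinas. The groups did not overlap, and the spread within each was small. The change was 0.64 ± 0.13 (SE) with a limma adjusted p of 0.0495, just under the threshold. This call was lost in 11 of 13 alternatives, among them each of the 6 in which 1 array was left out (adjusted p 0.0636 to 0.22), and it was also lost when p-values were adjusted over all probe sets in place of genes (adjusted p = 0.0737). The dimmer probe set of Lpl read 5.49, 5.42 and 5.98 in light damaged retinas, against 5.03, 5.0 and 5.57 in dark adapted retinas. It lay below the median of every array. Its change of 0.43 had the same sign, but its groups overlapped, as replicate 3 read higher than the other replicates in both groups.

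Among the secreted carriers, the 3 genes did not move one way: Clu had a positive change, and Apoe and Apod had negative changes. Clu encodes clusterin (apolipoprotein J), an extracellular chaperone and lipid carrier. It read 12.52, 12.61 and 12.65 in light damaged retinas, against 12.12, 11.96 and 11.82 in dark adapted retinas, with no overlap. The change was 0.63 ± 0.13 (SE), with a limma adjusted p of 0.059 without and 0.0101 with the replicate block. The other 3 probe sets of Clu gave changes of 0.69, 0.77 and 0.80, and in all 4 the light damaged values lay above all dark adapted values. With p-values adjusted over all probe sets, the 4 had adjusted p from 0.0819 to 0.353, and from 0.0148 to 0.0292 with the block. Of its 4 probe sets 3 have identifiers ending in _x_at, by which Affymetrix marks probes that may also match other transcripts, and the fourth, ending in _a_at, which marks probes shared by transcripts of 1 gene, gave the largest change.

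Apoe encodes apolipoprotein E, the main apolipoprotein of particles made within the nervous system. It read 10.82, 10.51 and 10.40 in light damaged retinas, against 11.06, 10.96 and 10.53 in dark adapted retinas. The groups overlapped, although each light damaged array was lower than the dark adapted array of the same number (differences of -0.23, -0.46 and -0.13). The change was -0.27 ± 0.18 (SE), with a 95% confidence interval from -0.70 to 0.15 and a limma adjusted p of 0.723. Apod encodes apolipoprotein D, a small carrier of the lipocalin family. It read 6.97, 7.32 and 6.94 in light damaged retinas, against 6.93, 7.59 and 7.54 in dark adapted retinas, so that the first dark adapted array was as low as the light damaged ones. Its change was -0.28 ± 0.21 (SE, 95% interval -0.75 to 0.20, limma adjusted p = 0.771). Its dimmer probe set, below the median of every array, gave -0.14.

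**Figure D2:**
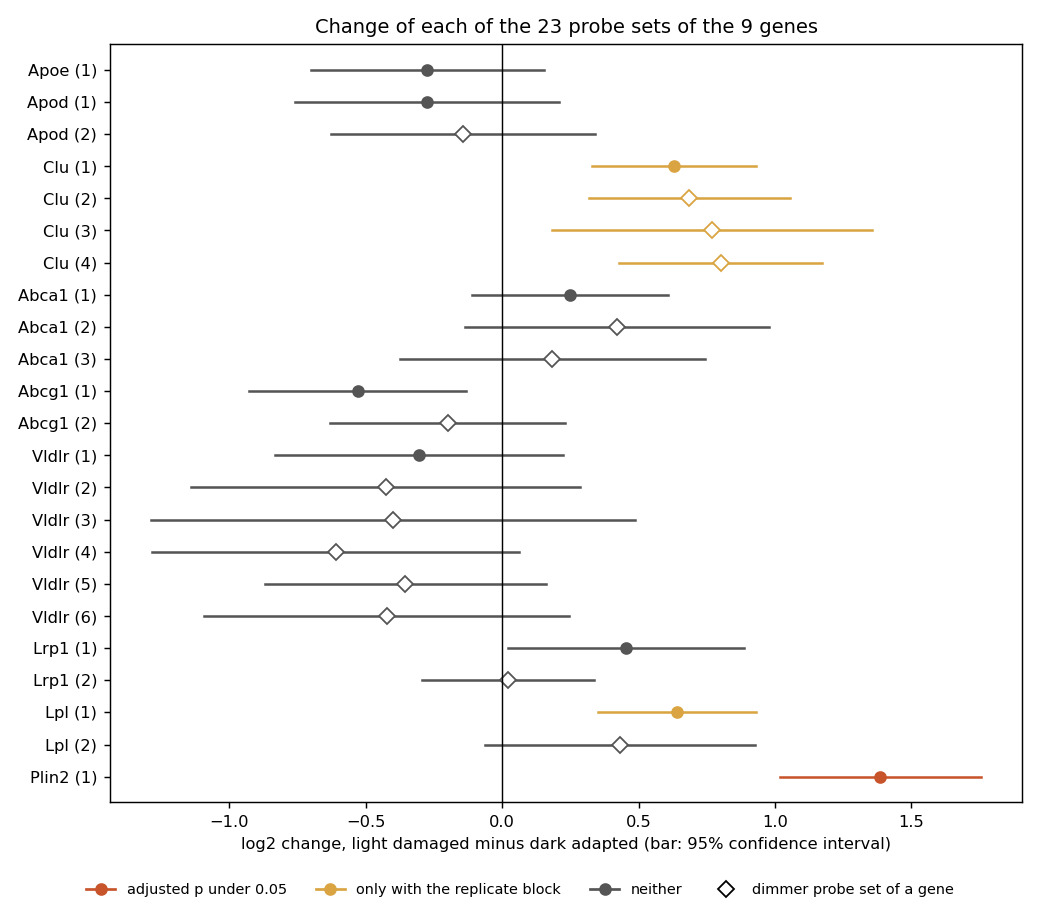
Log2 change of each of the 23 probe sets, light damaged minus dark adapted (horizontal axis), with its 95% confidence interval. Numbers in brackets order the probe sets of a gene from the brightest, filled circles mark the brightest and open diamonds the dimmer ones, and colours give the call with p-values adjusted over all probe sets. The probe sets of each gene share 1 sign: all 4 of Clu lie right of 0 and all 6 of Vldlr left of it, and Plin2 stands farthest right at 1.39.

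The transporters and receptors were likewise divided, with positive changes of Abca1 and Lrp1 and negative changes of Abcg1 and Vldlr. None of the 4 passed the threshold without the block. Abcg1, the half-transporter that passes sterol to formed particles, read 9.28, 9.33 and 8.77 in light damaged retinas, against 9.73, 9.65 and 9.59 in dark adapted retinas. All light damaged values lay below all dark adapted values, and the third light damaged array was the lowest. The change was -0.53 ± 0.17 (SE), with a limma adjusted p of 0.235 without and 0.0287 with the replicate block. The dimmer probe set of Abcg1 gave a change of -0.20, with overlapping groups. With p-values adjusted over all probe sets in place of genes, neither probe set passed with the block. The limma adjusted p was 0.0643 for the brighter and 0.489 for the dimmer. Abca1, the transporter that loads sterol onto lipid-poor apolipoproteins, read 8.60, 8.44 and 8.35 in light damaged retinas, against 8.38, 8.31 and 7.95 in dark adapted retinas. Its groups overlapped, with a change of 0.25 ± 0.16 (SE; 95% interval -0.11 to 0.61; limma adjusted p = 0.692). Its other probe sets gave 0.42 and 0.18, the same sign, but the one with 0.18 lay below the median of every array.

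Vldlr, the very low density lipoprotein receptor gene, had the most probe sets, and all 6 gave a negative change, from -0.31 to -0.61. The brightest read 9.96, 9.36 and 10.06 in light damaged retinas, against 10.43, 9.86 and 10.01 in dark adapted retinas. The groups overlapped, and the change was -0.31 ± 0.22 (SE; 95% interval -0.82 to 0.21; limma adjusted p = 0.765). It was -0.09 without light damaged replicate 2 and -0.14 without dark adapted replicate 1. The range within each group was wider than the change in all 6 probe sets. In each of them the dark adapted array of replicate 1 was the highest of its group. The light damaged arrays of replicates 1 and 2 were lower than the dark adapted arrays of the same numbers in all 6 probe sets (differences of -0.41 to -0.96), whereas for replicate 3 the difference lay between -0.41 and 0.07 and was positive in 4 of the 6. Probe sets of 1 gene on the same arrays are not independent measurements.

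Lrp1 encodes a large endocytic receptor of apolipoprotein E and of protease complexes. It read 8.94, 8.65 and 9.0 in light damaged retinas, against 8.76, 8.16 and 8.30 in dark adapted retinas. The first dark adapted array exceeded the second light damaged one, so the groups overlapped, but each light damaged array was higher than the dark adapted array of the same number (by 0.18, 0.49 and 0.69). The change was 0.45 ± 0.19 (SE), with a limma adjusted p of 0.407. The dimmer probe set of Lrp1, below the median of every array, gave a change of 0.02.

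The groups of Clu, Lpl and Plin2 did not overlap, with light damaged above, as for 11.9% of all genes, and those of Abcg1 did not overlap, with light damaged below, as for 3.75% of all genes. Of the 23 probe sets, 1 was called with p-values adjusted over all probe sets, that of Plin2, where 1.02% of all probe sets were called. With the replicate block it was 6 of 23 (4 of Clu, 1 of Lpl and that of Plin2), where 4.68% of all probe sets were called. No probe set of the 9 genes lay below the lower quartile on all 6 arrays.

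The secreted carriers were set against the transporters and receptors by the mean change of each class. The mean of the 3 carriers was 10.08 ± 0.08 in light damaged and 10.06 ± 0.11 in dark adapted retinas (SD, n = 3 each), a mean change of 0.03. The mean of the 4 transporters and receptors was 9.06 ± 0.13 in light damaged and 9.09 ± 0.20 in dark adapted retinas, a mean change of -0.03. The classes therefore differed in their change by 0.06, which is less than the SD between replicates of the difference between classes (0.16 in light damaged and 0.24 in dark adapted retinas). This difference was 0.20, 0.02 and -0.04 in the pairs of replicates 1, 2 and 3, and its sign turned to -0.07 without dark adapted replicate 1 and to -0.03 without light damaged replicate 2. Both means were made up of opposite changes, of Clu against Apoe and Apod, and of Abca1 and Lrp1 against Abcg1 and Vldlr. Members of both classes were chosen with earlier results known, so no test was made of this score.

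**Figure D3:**
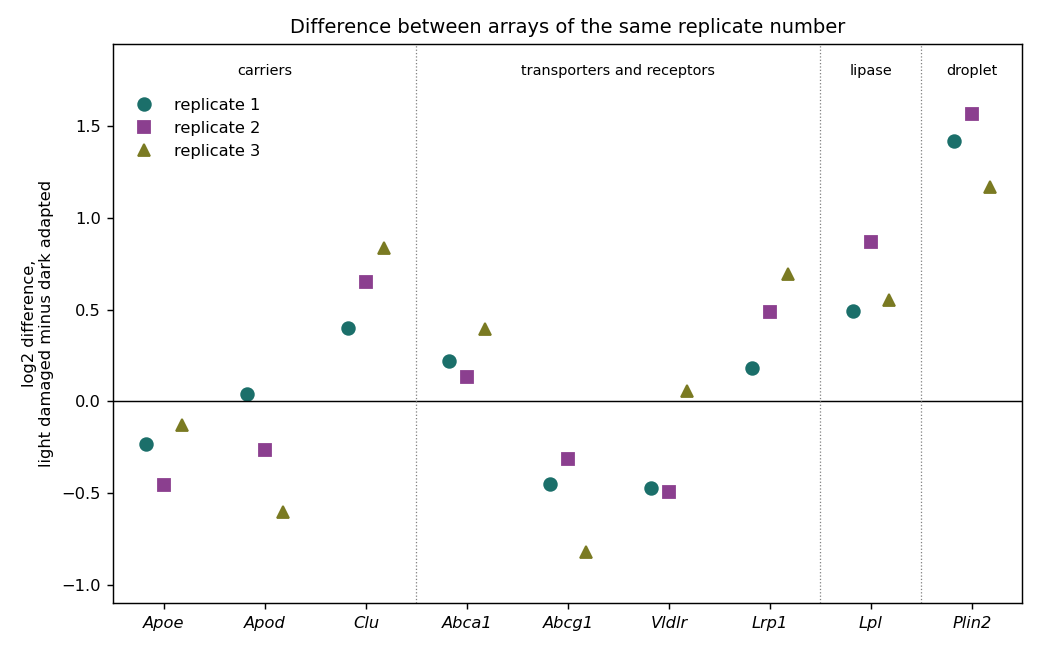
Log2 difference between the light damaged and the dark adapted array of the same replicate number (vertical axis) for each of the 9 genes, grouped by role. Each symbol is 1 replicate number. All 3 differences are above 0 for Clu, Abca1, Lrp1, Lpl and Plin2 and below 0 for Apoe and Abcg1, while those of Apod and Vldlr fall on both sides.

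The start regions of Plin2, the gene with the clearest change, and of Abca1, a transporter with no called change, are shown for comparison, as RefSeq gives them for the assembly GRCm38.p6. Each is 250 bases before and 50 after a start site, 5′ to 3′ on the gene's minus strand, at chr4:86670010-86670309 for Plin2 and chr4:53159846-53160145 for Abca1. Capitals mark matches, on either strand, to the E-box CACGTG, the Sp1 box GGGCGG and the TATA box TATAAA, none of which overlapped.
Plin2: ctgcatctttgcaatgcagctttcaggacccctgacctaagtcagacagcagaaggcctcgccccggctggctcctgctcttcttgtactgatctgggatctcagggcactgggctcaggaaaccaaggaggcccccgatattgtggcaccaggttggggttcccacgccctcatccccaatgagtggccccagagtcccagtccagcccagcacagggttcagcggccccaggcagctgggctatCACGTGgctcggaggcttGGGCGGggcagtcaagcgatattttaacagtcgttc
Abca1: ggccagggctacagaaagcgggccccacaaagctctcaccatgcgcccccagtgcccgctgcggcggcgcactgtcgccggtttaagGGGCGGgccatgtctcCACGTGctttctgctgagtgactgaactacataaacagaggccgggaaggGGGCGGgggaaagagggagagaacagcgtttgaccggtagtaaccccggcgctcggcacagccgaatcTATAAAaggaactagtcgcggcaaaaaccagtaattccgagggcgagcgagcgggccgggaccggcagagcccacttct
Both windows hold an E-box, which begins at position -4 from the start site in Plin2 and at -147 in Abca1, as do 7.15% of all 32851 windows in the table. Both hold an Sp1 box, 1 in Plin2 and 2 in Abca1, as do 35.7% of all windows, and Abca1 also has a TATA box (13.6% of all windows). The STAT motif TTCNNNGAA (8.3% of all windows), the AP-1 motif TGANTCA (7.81%) and the C/EBP motif TTGCNNAA (10.8%) had no match in these windows. Nor had the sterol element TCACNCCAC (1.24%). The LXR element was searched only as an exact direct repeat of AGGTCA with 4 bases between (0.0152%), which had no match either. Elements with inexact half-sites were not searched, so the missing match does not show that these windows lack an LXR element. The table matched 6 of the 9 genes, with 9 windows. Among these the STAT motif occurred in Lrp1 and the C/EBP motif in Vldlr. A match in letters is a description and not evidence of binding.

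Other genes of lipid handling were read from 6 lists, with 105 of 116 listed genes measured. Of these, 3 rose past the threshold in limma, none fell (against 1.74% and 0.269% of all genes), and 102 did not pass; the lists' median changes lay between -0.0019 and 0.12. Closest in function to Plin2 was Plin3, a perilipin that binds nascent droplets. It read 7.47, 7.50 and 7.71 in light damaged retinas, against 6.54, 6.62 and 6.59 in dark adapted retinas. The groups were well apart, with a change of 0.98 ± 0.13 (SE, limma adjusted p = 0.00693), and the call was lost in 1 of 13 alternatives, with each array centred on reference genes (0.0653). The other 17 measured genes of the lipid droplet and fatty acid binding list did not pass, and the median change of the list was 0.04. With the replicate block 1 of them was lower, Hilpda (-0.55, adjusted p = 0.0108), a hypoxia-inducible droplet gene, chosen here with its values known.

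In the list of sterol efflux, LXR and sterol handling, 2 of 22 genes rose and none fell, with a median change of 0.10. LXRs are the nuclear receptors that induce Abca1, Abcg1 and Apoe when sterol is plentiful. Tspo, an outer mitochondrial membrane protein that binds cholesterol and is also a common marker of activated microglia, rose 2.05-fold (1.03 ± 0.12, SE, limma adjusted p = 0.00475). Ch25h, whose enzyme makes an oxysterol from cholesterol, read 5.86, 5.90 and 5.98 in light damaged retinas, against 4.92, 5.29 and 5.09 in dark adapted retinas. It was dim, with 2 of the 6 arrays below the lower quartile, and its groups did not overlap (change 0.81 ± 0.14, SE, limma adjusted p = 0.0255). Its call was lost when any of the 3 light damaged arrays or dark adapted replicate 3 was left out (adjusted p 0.0578 to 0.132), and with that centring (0.2). The LXR gene Nr1h3 had a change of -0.0065 (limma adjusted p = 0.997); it too was chosen with its values known. With the replicate block 4 of the 22 genes were higher and 1 lower (against 6.73% and 2.13% of all genes). The higher ones were Tspo, Ch25h, Npc2 and Lipa. Npc2 had a change of 0.55 (limma adjusted p = 0.0663 without and 0.0123 with the block), and its 4 probe sets gave changes from -0.17 to 0.57. Lipa had a change of 0.60 (limma adjusted p = 0.46 without and 0.0488 with the block). Npc2 and Lipa were chosen with their values known. The lower one was Scarb1, a receptor of high density lipoprotein, with a change of -0.47 and a limma adjusted p of 0.336 without and 0.0267 with the block, also chosen with its values known.

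The remaining lists had no gene past the threshold, and their counts at an unadjusted p under 0.05 stand against 11% of all genes. Of 16 other genes that carry apolipoprotein names, none passed (none had an unadjusted p under 0.05), and the median change was -0.0019. Apoc1, an exchangeable apolipoprotein with the smallest p among them, had a change of -0.17 (limma adjusted p = 0.783). Of 19 other lipoprotein and scavenger receptors none passed, with 2 at an unadjusted p under 0.05. Lrp10, a member of the LDL receptor family, came nearest: it read 9.32, 9.25 and 9.41 in light damaged retinas, against 8.91, 8.50 and 8.50 in dark adapted retinas. Its change was 0.69 ± 0.15 (SE, limma adjusted p = 0.0697, and 0.00814 with the block). With the block 2 of the 19 were higher, Lrp10 and Msr1 (against 6.73% of all genes). Msr1, a macrophage scavenger receptor gene, had a change of 0.50 (limma adjusted p = 0.619, and 0.0349 with the block). Its 4 probe sets gave changes from -0.032 to 1.22. It was chosen with its values known. Of 12 other lipases and lipase regulators none passed, with 2 at an unadjusted p under 0.05. Pla2g7, a phospholipase carried on lipoproteins, read 9.18, 8.54 and 8.82 in light damaged retinas, against 10.18, 9.73 and 9.62 in dark adapted retinas, a change of -0.99 ± 0.21 (SE; limma adjusted p = 0.0586, and 0.000775 with the block). Of 18 genes of sterol and fatty acid synthesis none passed, with 1 at an unadjusted p under 0.05, Fasn, the fatty acid synthase gene (0.46, limma adjusted p = 0.225).

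**Figure D4:**
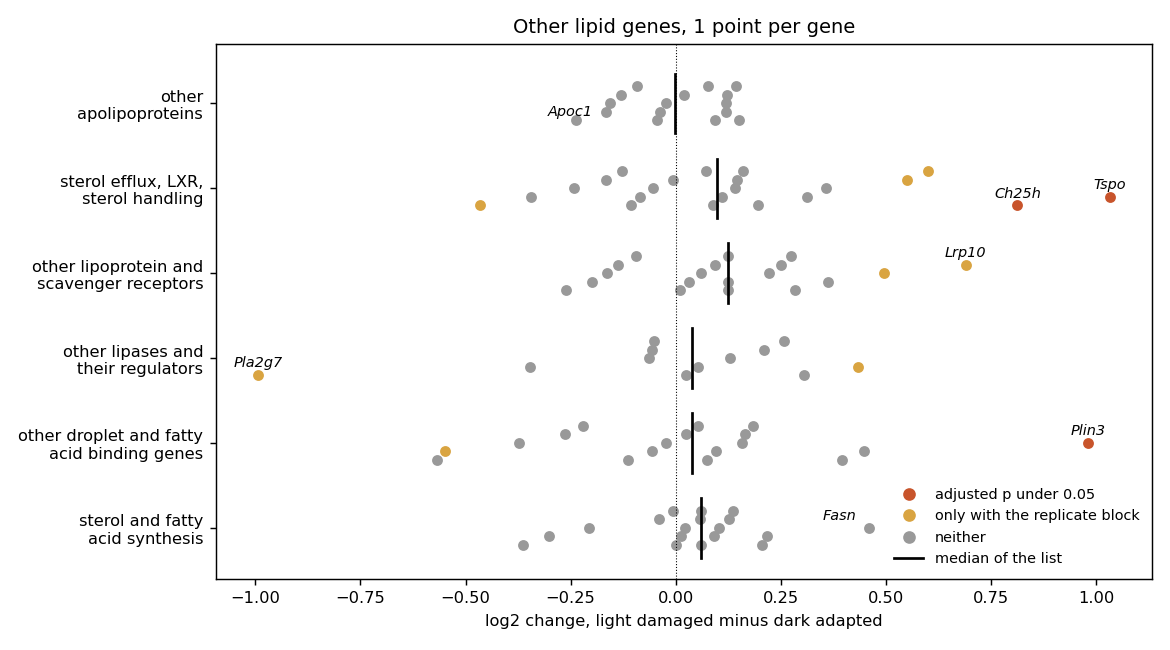
Log2 change, light damaged minus dark adapted (horizontal axis), of the measured genes of 6 lists of other lipid genes, 1 point per gene. Black lines give each list's median, and colours give the limma call. Tspo, Ch25h and Plin3 are the 3 genes past the threshold, and the medians of the 6 lists lie between -0.0019 and 0.12.

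For each of the 9 genes, the gene outside the set whose 6 array values followed it most closely was found by Pearson's correlation, which over 6 arrays in 2 groups is a description only. Plin2 was followed most closely by Ctsz, the lysosomal protease cathepsin Z (r = 0.996), which had a change of 1.11 and a limma adjusted p of 0.00596. For Apoe it was Rlbp1, a retinaldehyde-binding protein gene of Müller glia and pigment epithelium (r = 0.995), with a change of -0.50 and an adjusted p of 0.625. For Lpl it was Scpep1 (r = 0.996), for Abca1 Insr (r = 0.998) and for Lrp1 Phf23 (r = 0.998), and none of these 3 passed the threshold. The closest genes of Abcg1 (Scgn), Vldlr (Gpatch2l), Apod (B230303A05Rik) and Clu (D11Wsu47e) did not pass it either.

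Markers of several retinal cell types also differed between the groups. Of 8 reactive glia markers 7 rose, with a summed level (the sum of the values taken back to the linear scale) of 8926 to 9788 in light damaged and 2209 to 2725 in dark adapted retinas. Of 11 microglia and macrophage markers 3 rose (Cd68, Cd14 and Lyz2), and their sum was 1264 to 1404 in light damaged against 883 to 1063 in dark adapted retinas. The median change of the 11 was 0.11, and with the replicate block 4 were higher and 1 lower, P2ry12 (-0.48, limma adjusted p = 0.0199), which lay below the lower quartile on 4 of the 6 arrays. Of 8 rod markers 1 fell (Nrl) and all 8 changes were negative, with a sum of 30456 to 38263 in light damaged and 41389 to 51926 in dark adapted retinas. Their median change was -0.65, and 5 were lower with the replicate block (against 2.13% of all genes). Of 8 Müller glia markers, 10 pigment epithelium markers and 7 vascular markers none passed, with median changes of -0.11, -0.05 and 0.25, but members of each went both ways. The Müller glia changes ran from -0.99 (Glul) to 0.77 (Kcnj10), with 3 higher and 2 lower with the replicate block. Their sum was 6558 to 8795 in light damaged and 8631 to 11301 in dark adapted retinas, so the groups overlapped. The pigment epithelium changes ran from -0.71 (Rrh) to 0.99 (Ttr), with 1 higher and 1 lower with the block. Their sum was 1419 to 2706 in light damaged and 1335 to 1884 in dark adapted retinas. The vascular changes ran from -0.24 (Flt1) to 0.49 (Rgs5), with 1 higher with the block. Their sum was 2446 to 2661 in light damaged and 1765 to 2425 in dark adapted retinas. Of 6 lens markers none passed, but their sum ranged from 20451 to 40179 in light damaged and from 19070 to 41879 in dark adapted retinas. With the block 2 of them were lower. The block counts of all these marker lists stand against 6.73% of all genes higher and 2.13% lower. Of 3 measured blood cell markers none passed. The mean log2 level of the rod markers, 10.96 to 11.39 in light damaged and 11.52 to 12.06 in dark adapted retinas, was far above the array medians of 6.15 to 6.18. That of the lens markers was also far above them, at 10.18 to 11.74 in light damaged and 10.37 to 12.06 in dark adapted retinas. Whether the samples held lens material was not tested. The part of these cell types in the changes of Plin2, Lpl, Clu and the other lipid genes was not tested.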

How the data were processed

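Retinal total RNA was measured on 6 Affymetrix arrays, grouped by their titles. The authors made the deposited log2 values with RMA, per the submitters' processing notes, which name no version; the log2 scale was judged from the range. RMA corrects background and brings the arrays toward a common distribution, which hides any change in the total amount of RNA. Array medians lay between 6.15 and 6.18. The upper quartiles still ran from 7.41 in dark adapted replicate 3 to 7.67 in light damaged replicate 1. The number of arrays limits precision.

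Of 45101 probe sets, 64 controls were left out, and 34945 were assigned to 1 gene, 932 to several and 9160 to none by GEO's platform annotation; 34741 matched RefSeq (GRCm38.p6, used for names and start regions) by gene identifier, with 0 symbols changed. Each gene was read by its probe set of highest mean level, without a filter on level. The comparison used limma 3.58.1 (lmFit, eBayes) in R 4.3.3; a second fit covered all 45037 probe sets. The fit was first checked on data with known changes.

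The genes named are the 9 members, up to 2 genes with the largest change past the threshold in each lipid list or else the 1 with the smallest p, and the most correlated gene of each member. Hilpda, Nr1h3, Npc2, Lipa, Scarb1, Msr1, Rplp0 and the cell type markers named were picked with their values known. The members and lists were chosen with earlier results of these data known. Deviations from group means correlated at 0.731, 0.618 and 0.432 between arrays of the same replicate number and between -0.48 and 0.00902 for others. The numbers were therefore taken as pairing the arrays; no label says so. Alternatives were the replicate block, each array left out, other choices of probe set, other normalizations, a level filter and a variance trend.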

Additional observations from a re-analysis of the deposited data

How the results depend on the processing

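With the replicate block 1613 genes changed (1225 higher and 388 lower) in place of 365 (316 and 49), and 2109 probe sets in place of 458; all 365 genes were among the 1613. Of the 9 genes the block added Clu and Abcg1 to the calls and changed no other. Of the rises named in other lipid lists Ch25h was lost in 5 of its 12 alternatives. Quantile normalization again gave 325 higher and 161 lower genes, and called Clu (adjusted p = 0.04) but not Lpl (0.0774). It moved the changes of Apoe to -0.42, Abcg1 to -0.68, Vldlr to -0.45 and Abca1 to 0.14, and called none of these genes. Centring on the reference genes (6 of 8 measured) gave 157 higher and 183 lower, moved the median change of all genes to -0.22 from 0.03, and turned Abca1 to -0.0059, its dimmest probe set to -0.071 and the dimmer one of Lrp1 to -0.23. Among these reference genes Rplp0 itself rose (1.20). The genes higher numbered 3 of the 9 among genes above the median level, where Clu was called too (adjusted p = 0.048), and 1 of the 9, Plin2 alone, with the mean of probe sets, without probe sets ending in _s_at, _x_at or _a_at, with reference centring and with a variance trend. With 1 array left out it was again 1 (lowest and highest), all genes changed numbered 151 to 417 (141 to 384 higher, 9 to 82 lower) and probe sets 128 to 380. The difference between carriers and transporters ranged from -0.068 to 0.17 with 1 array left out and turned to -0.030 without light damaged replicate 2. Some single probe sets changed sign with 1 array left out. The dimmer one of Apod ranged from -0.36 to 0.062, and 1 of Vldlr, with a change of -0.40 on all arrays, from -0.68 to 0.0048. Of Abca1, 1 ranged from -0.030 to 0.43, and the dimmer one of Lrp1 from -0.082 to 0.088 (with -0.015 in between). The cause was not tested. Plin2 and Tspo were called under all 13 alternatives and Plin3 under 12, the exception being reference centring (adjusted p = 0.0653). Apoe and Clu have no other kind of probe set, so without those endings they, and the carrier difference, have no value, and Apoc1, Ch25h and Pla2g7 each lack 1 alternative. Values with 1 array left out assume that the smaller group varies like the other.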
